A study of Sus scrofa with 12 samples.

Results

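Among the places where C/EBP-β chromatin peaks recurred in pig endometrium, 1057 regions lay at an end of a long non-coding RNA (lncRNA) gene and away from protein-coding gene ends. They were found by joining peak summits of 6 libraries that lay within 200 bp of each other on chromosomes 1 to 18 and X. A region was kept when it had a summit in 2 or more libraries, when its midpoint was within 2 kb of either end of a gene that RefSeq classes as lncRNA, and when it was more than 5 kb from every protein-coding gene end. The 1057 lncRNA-end regions made up 2.15% of the 49050 regions with summits in 2 or more libraries, and 1.07% of all 98994 joined regions. The regions were thus chosen by their position and by the presence of summits in these same libraries, so the number of libraries in a region and the presence of these regions in each library are given only as a description, with no test. The endometrium, the lining of the uterus, was taken from pregnant pigs, at day 12 for 3 of the C/EBP-β ChIP libraries and at day 15 for the other 3, and 1 antibody was used throughout. The 6 matching input samples were not used here. Breed, age and treatment of the animals are not stated. Nor do the labels say whether replicates came from separate animals, so p-values may measure technical spread only. In whole tissue, a site bound in fewer cells and a site bound less often per cell cannot be told apart, and no RNA was measured that would check the tissue against marker genes.

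Long non-coding RNAs are transcripts without a long open reading frame. Many are spliced and made from promoters or enhancers, some act on the chromatin of neighbouring genes, and for most no role is known. C/EBP-β, encoded by CEBPB, is a basic leucine zipper factor that binds DNA as a dimer and responds to cytokines, steroid hormones and stress. In the uterus it is known for its part in the response of the stroma to progesterone and oestrogen. Pig lncRNA genes mostly carry only a locus number in RefSeq, so the neighbouring protein-coding gene is named beside each one to place it on the map. A distance to a protein-coding gene is always to its nearest end, and a region can lie inside that gene. No control of that neighbour by the lncRNA or by the region is implied.

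The lists held 6556, 33274 and 57694 summits in replicates 1 to 3 of day 12 and 70105, 16519 and 11954 in replicates 1 to 3 of day 15. Each summit is 1 bp wide and has a score from the authors, a p-value or q-value on the −log10 scale, used here to describe and rank summits within 1 list. Read depth is unknown. Peak names fall into a set A with a directory path (day 12 replicate 1, day 15 replicates 2 and 3) and a set B without a path (the other libraries). Names of day 15 replicates 2 and 3 share a code, and those of day 15 replicate 3 do not name the protein. Day 12 thus has 1 library of set A and day 15 has 2, so each comparison of days is also given within sets. The closest summits of a list were 155 to 310 bp apart, and a broad peak may be listed by its highest point alone.

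The regions were spread thinly over many lncRNA genes. They lay next to 832 of the 5399 lncRNA genes on these chromosomes (15.4%). Of the 4661 lncRNA genes with at least 1 end more than 5 kb from protein-coding ends, 820 had a region (17.6%, 95% exact binomial interval 16.5% to 18.7%, which covers counting error only). A single region was found at 659 genes, 2 at 133 genes and 3 or more at 40 genes. The share of such genes with a region was 20.3% for genes under 2 kb, 21.0% for 2 to 10 kb, 17.4% for 10 to 50 kb and 12.3% for 50 kb or more. Genes with 1 annotated transcript and with 2 or more had a region in 17.3% and 18.2% of cases, with overlapping intervals (16.0% to 18.6% and 16.3% to 20.3%). By chromosome the share ran from 10.9% on chromosome 18, 11.4% on chromosome 16 and 12.4% on X to 23.7% on chromosome 10. The median distance to the nearest protein-coding gene end was 30.4 kb, and 201 regions (19.02%) were more than 100 kb from one. Inside the body of a protein-coding gene lay 246 regions (23.3%), 218 of them in the gene whose end was nearest, against 56.6% of the 31177 recurrent regions more than 5 kb from every gene end. The rule ties the lncRNA-end regions to annotated gene ends. How much of the sequence around such ends lies inside protein-coding genes is not given here.

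Across libraries, the lncRNA-end regions stood between regions at protein-coding gene ends and regions far from genes. Of the 1057, a summit was present in 14.0%, 61.2% and 87.1% in day 12 replicates 1 to 3, and in 88.2%, 31.8% and 23.4% in day 15 replicates 1 to 3. For the 11026 recurrent regions within 2 kb of a protein-coding gene end these shares were 19.9%, 47.8%, 72.7%, 83.8%, 57.1% and 46.8% in the same order. For the 31177 far from every gene end they were 10.8%, 64.8%, 91.1%, 86.6%, 20.1% and 13.9%. The lncRNA-end share lay between the other shares in 5 of the 6 libraries and above both in day 15 replicate 1. The libraries of set A were low and those of set B high on both days. Summits in set B libraries alone made up 624 of the 1057 regions (59.0%), against 62.4% of all recurrent regions, and summits in set A libraries alone 8 (0.757%), against 1.63%. At protein-coding gene ends these shares were 33.4% and 5.70%, and far from genes 72.0% and 0.337%.

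**Figure D1:**
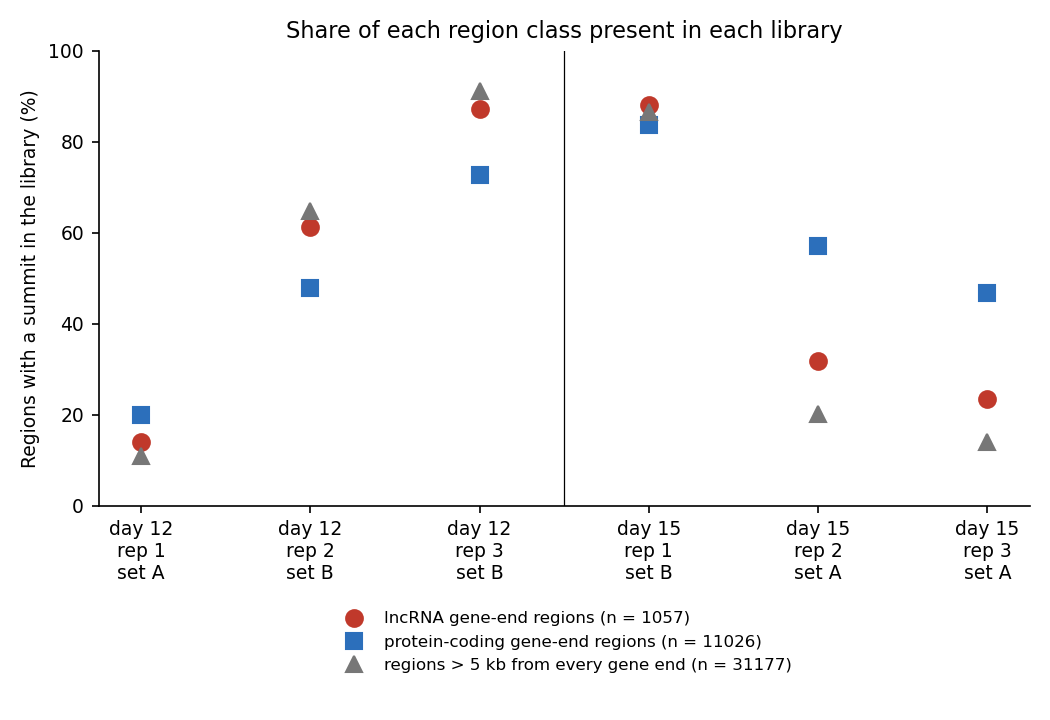
Percent of recurrent regions (vertical axis) with a summit in each library (horizontal axis, with day, replicate and set), for lncRNA-end regions (circles), protein-coding gene-end regions (squares) and regions more than 5 kb from every gene end (triangles). Circles lie between squares and triangles in all libraries except day 15 replicate 1, where 88.2% is the highest of the 3 shares.

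The days overlapped in the number of lncRNA-end regions per library. Day 12 libraries held 148, 647 and 921 of them and day 15 libraries 932, 336 and 247. On the log2 scale this came to 8.80 ± 1.40 for day 12 against 8.73 ± 1.00 for day 15 (means ± SD, n = 3 each), a difference of -0.063, far below both SDs. It was 0.96 within set A and 0.27 within set B, or 1.95-fold and 1.21-fold more on day 15. The difference was -0.86 without day 12 replicate 1, -0.58 without day 15 replicate 1 and above 0 without any of the 4 other libraries, up to 0.41 without day 12 replicate 3.

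Setting the regions against others of the same lists takes out part of the difference in list length. Against protein-coding gene ends, the log2 odds ratio that an lncRNA-end region had a summit was -0.61, 0.79 and 1.34 in day 12 replicates 1 to 3 and 0.53, -1.51 and -1.53 in day 15 replicates 1 to 3. The day means were 0.51 ± 1.00 and -0.84 ± 1.18 (SD, n = 3 each), a difference of -1.35 with days that overlapped. Within sets it was -0.91 in set A and -0.54 in set B. Against regions far from every gene end the ratios ran the other way, at 0.43, -0.22 and -0.60 on day 12 and 0.20, 0.89 and 0.92 on day 15. The difference there was 0.80, with 0.48 in set A and 0.61 in set B. Without day 15 replicate 1 the differences were -2.67 and 1.43. Both differences kept their sign under each of the 18 alternatives run. The replicate block among them leaves a mean difference unchanged by construction, so its sign could not turn. The sets did not overlap in either ratio. Against protein-coding ends the means were -1.22 in set A and 0.88 in set B, and against far regions 0.74 and -0.21. With equal lists the day difference against protein-coding ends was -1.48 in set A and -0.14 in set B. Against far regions it was 0.67 and 0.49. The two-sided exact permutation test of 3 libraries against 3 could not pass a threshold of 0.05, since its smallest p is 0.1. These values thus neither show nor exclude a difference between days.

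Taking every summit, recurrent or not, a nearly constant share fell at lncRNA gene ends. Windows within 2 kb of an lncRNA gene end and more than 5 kb from protein-coding ends cover 30.65 Mb, or 1.28% of the chromosome length. These windows held 2.33%, 2.13% and 2.14% of the summits of day 12 replicates 1 to 3 and 2.14%, 2.31% and 2.28% of those of day 15, or 1.66 to 1.82 times the share of length. The day means were 2.20% ± 0.114 and 2.24% ± 0.0896 (SD, n = 3 each), with a difference of 0.041 percentage points (two-sided exact permutation p = 0.9, adjusted 1 over 4 tests). The sets did not overlap, at 2.31% ± 0.025 in set A and 2.14% ± 0.00633 in set B (SD, n = 3 each). With the 6556 highest-scoring summits of every list set A was no longer higher, at 2.07% to 2.33% in set A and 2.33% to 2.62% in set B. The sets met at day 12 replicates 1 and 2, both at 2.33%.

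Regions gathered close to the annotated end of the lncRNA gene. In bins of 250 bp, the first held 203 regions (19.2%) and the next 156 (14.8%), falling to 103 (9.74%) in the last. The length of the windows fell less, from 13.01% in the first bin to 11.9% in the last, since distance is to the nearest end and windows of short genes overlap. Per Mb of window there were 50.9 regions in the first bin and 28.2 in the last. Within 500 bp of the end lay 359 of 1057 (34.0%), and 592 (56.0%) had their midpoint inside an lncRNA gene. Of the regions present in a library, 39.2%, 31.7% and 33.1% lay within 500 bp in day 12 replicates 1 to 3 and 33.4%, 40.5% and 40.9% in day 15 replicates 1 to 3. Set A libraries were all higher (40.2% ± 0.887, SD, n = 3) than set B libraries (32.7% ± 0.908, SD, n = 3). Day 15 minus day 12 came to 3.58 points in all, within the SD of 3.98 and 4.23 of the days, which hold the gap between sets. It was 1.49 points in set A and 0.97 in set B, with 1 library of one day against 2 of the other. The SD of a set is taken over both days, so it does not give the spread within a day. In set A day 12 was at 39.2% and day 15 at 40.5% and 40.9%. In set B day 12 was at 31.7% and 33.1% and day 15 at 33.4%. The share within 500 bp was chosen as a measure after the data had been seen and was not tested. The gene table gives no strand, so a start could not be told from a 3′ end.

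**Figure D2:**
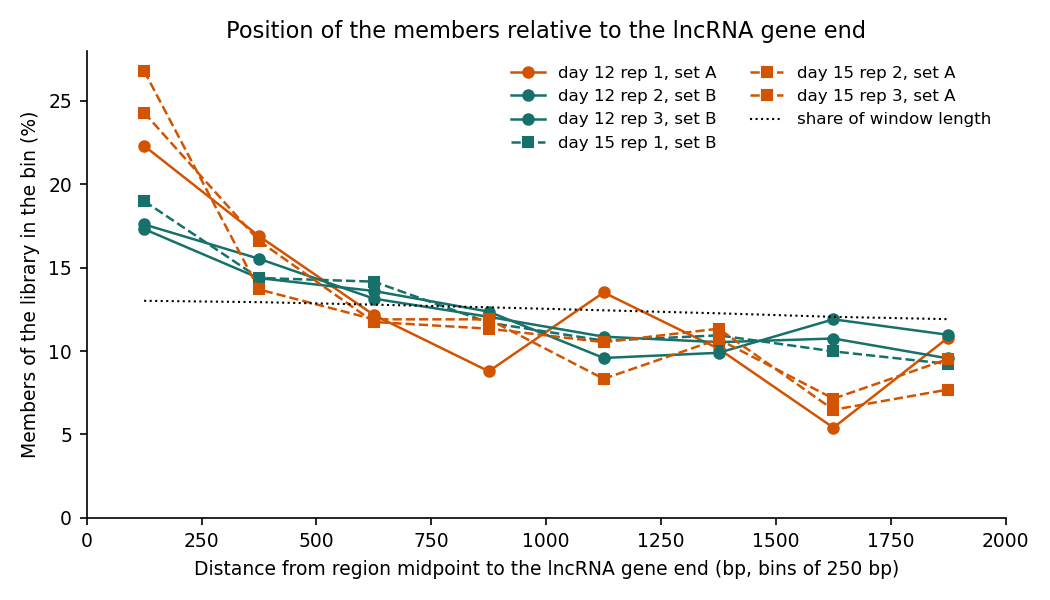
Percent of the lncRNA-end regions of each library (vertical axis) by distance of the region midpoint from the lncRNA gene end in bins of 250 bp (horizontal axis, bp), with set A in orange, set B in green, day 12 as circles and day 15 as squares. The dotted line is the share of window length in each bin, 13.01% in the first and 11.9% in the last. All 6 libraries are highest in the first bin, set A at 22.3% to 26.8% and set B at 17.31% to 18.99%.

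A summit in all 6 libraries was found in 62 of the 1057 regions (5.87%), and 5.51% of all recurrent regions had one. Since the rule used the number of libraries, nothing is read from that share. The mean score percentile of the 62 within the lists ran from 51.0 to 99.5, with a median of 78.9. The region with the highest mean percentile lay at HNRNPU, an entry that bears the name of a nuclear RNA-binding protein gene but is classed as lncRNA in the pig table (chromosome 10, 17495663 to 17495702, inside the gene and 1377 bp from its end). Its scores were 46.9, 79.3 and 111 in day 12 replicates 1 to 3 and 274, 98.4 and 91.4 in day 15 replicates 1 to 3. Within their lists these scores stood at percentiles 98.0 to 99.9.

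Next came the region 1463 bp outside LOC102158724, 12.2 kb from FOXQ1, a forkhead transcription factor gene of epithelia (chromosome 7, 678619 to 678639). It scored 72.0, 88.3 and 163 on day 12 and 351, 95.5 and 37.4 on day 15. The region 737 bp outside LOC110255631 (chromosome 10, 10451073 to 10451090) scored 49.9, 51.9 and 80.9 on day 12 and 233, 41.0 and 57.2 on day 15. Its nearest protein-coding gene, at 181 kb, was HLX, which encodes a homeobox factor. On chromosome 13, the region at 14094955 to 14094984, outside LOC102163243 and 51.9 kb from the bicarbonate transporter gene SLC4A7, was at percentiles 97.5 to 99.7. These 4 regions were the only ones of the 12 ranked highest that were above percentile 97 in all 6 libraries.

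The remaining 8 of the 12 ranked high in set B and lower in at least 1 library of set A. They included LOC106509564 (chromosome 2, 137408475 to 137408502), 127 kb from H2AFY, a histone macroH2A gene, and LOC110256704 (chromosome 14, 82030628 to 82030675), 20.7 kb from the collectin gene SFTPD. A region inside the lncRNA gene LOC106510075 (chromosome 4, 72539207 to 72539298) lay 33.2 kb from CHD7, a chromatin remodeller gene. The region beside LOC106506709 lay inside ZMYND8, a chromatin reader gene, and that beside LOC110260655 inside CCNT1, which encodes cyclin T1 of the elongation factor P-TEFb. LOC110255727, LOC110259912 and LOC102164427 completed the 12. In day 12 replicate 1 and day 15 replicate 3 these 3 were at percentiles 74.6 to 88.8 and 75.3 to 87.6, and in set B at 97.9 to 99.6.

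**Figure D3:**
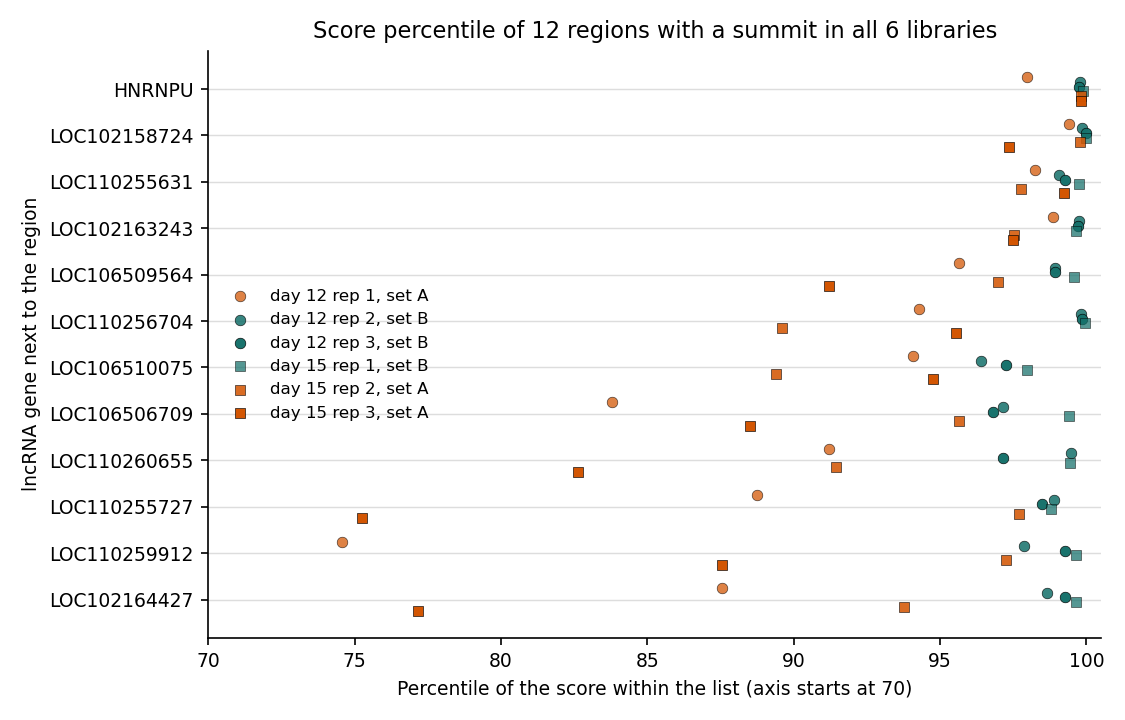
Percentile of the score within its own list (horizontal axis, starting at 70) for the 12 regions of all 6 libraries with the highest mean percentile (vertical axis, by lncRNA gene), with 1 point per library, set A in orange, set B in green, day 12 as circles and day 15 as squares. Set B points lie between 96.4 and 99.97 in all 12, and set A points reach down to 74.6 at LOC110259912.

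LOC102164427 had regions at both ends, 1 of them beside ATF3, the gene of a bZIP factor induced by stress. The gene is 85.4 kb long. Near its lower end, at chromosome 9, 130835264 to 130835392, a region of all 6 libraries lay 1142 bp inside the gene and 5.65 kb from an end of ATF3. Its scores were 4.85, 7.91 and 8.65 on day 12 and 30.0, 18.9 and 27.3 on day 15. How many other regions of all 6 libraries have scores that separate the days was not counted, so nothing is read from these values. Such scores grow with depth, and the lists were not scaled to each other. A further region at 130836032 to 130836082, 6.38 kb from ATF3, had scores of 16.7 and 5.73 in day 15 replicates 1 and 2 and no summit in the other libraries. The region beyond the upper end (130920029 to 130920090) lay 28.1 kb from NENF and scored 18.7, 45.6 and 81.0 on day 12 and 210, 26.1 and 12.0 on day 15.

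Neighbours on 4 lists of protein-coding genes were few. A list gene was the nearest protein-coding gene within 50 kb for 18 of the 678 lncRNA-end regions that had any gene so close. AP-1, immediate early and stress genes were the neighbours of 7 regions (1.03%), against 103 of 19690 (0.523%) of all recurrent regions between 5 and 50 kb from a protein-coding gene end. Those 7 belong to 5 genes, ATF3, DUSP1, MYC, TRIB3 and XBP1. Beside DUSP1, a phosphatase gene of the MAP kinase pathway, LOC102166710 had a region of all 6 libraries (chromosome 16, 51433142 to 51433195, 24.8 kb from DUSP1). It scored 6.11, 3.70 and 15.2 on day 12 and 30.3, 5.88 and 23.5 on day 15. The 2 regions at LOC110256860, 6.56 and 26.9 kb from XBP1, the gene of an unfolded protein response factor, had no summit in set A.

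Hormone and attachment genes were the neighbours of 7 regions (1.03%, against 0.543%), and cytokine and interferon genes of 4 (0.59%, against 0.482%). The C/EBP family had none (5 of 19690 among all). LOC102160340 had 3 regions, all inside the annotated body of GATA2, a factor gene of the progesterone response, and 5.81 to 8.05 kb from its end. They were present in 5, 3 and 2 libraries. The one in 5 libraries (chromosome 13, 71988047 to 71988206) scored 5.78, 1.32 and 8.63 on day 12 and 10.1 and 5.88 in day 15 replicates 1 and 2. VEGFA, FGF9, ID2 and ID3 each had 1 region nearby. Beside LIF, the leukaemia inhibitory factor gene of implantation, a region at LOC106505966 scored 7.25 in day 12 replicate 2 and 26.6 in day 15 replicate 1. TNFAIP3, an inhibitor gene of NF-κB signalling, had 1 beside LOC100621792 with scores of 13.5 and 26.6 in day 12 replicates 2 and 3 alone, though the list of day 15 replicate 1 has a summit 396 bp away. BCL6 and IRF2 had 1 each. Of all 18 regions, 2 were present in 6 libraries.

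Few regions separated the days completely, and their shares were close to those of recurrent regions in general. In 4 regions (0.378%, 95% exact binomial interval 0.103% to 0.966%) every day 12 library had a summit and no day 15 library did, against 0.281% of all recurrent regions. The opposite was found in 14 (1.32%, 95% exact binomial interval 0.726% to 2.21%), against 1.82% of all, 5.88% at protein-coding gene ends and 0.507% far from genes. Leaving out day 12 replicate 1, the shortest list, made the day 12 count 88, and leaving out day 15 replicate 1, the longest, made it 34. Leaving out day 12 replicate 3 made the day 15 count 57. It became 32 when day 15 replicate 2 was left out, and 43 for day 15 replicate 3. A left-out library is no longer asked to have or to lack a summit, so these counts follow a looser rule. Their regions were also drawn anew from the remaining libraries. With lists of equal length, which left 226 lncRNA-end regions, the counts were 7 and 5. The shares of all recurrent regions under these settings are not given here. A library without a summit in the region could have one close by: within 1 kb no summit of the other day was found at 3 of the 4 and 10 of the 14.

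Of the 4 day 12 regions, that with the highest percentile lay inside LOC106510048 (chromosome 4, 61865698 to 61865770), 54.1 kb from LY96, which encodes the MD-2 co-receptor of TLR4. Its scores were 13.3, 31.2 and 52.3, at a mean percentile of 90.4, and the nearest day 15 summit of any library was 41256 bp away. Both regions of LOC106509981 on chromosome 4 (18412427 to 18412526 and 18418788 to 18418826) were of day 12, 1 on each side of this 4.01 kb gene, and lay inside SNTB1, a syntrophin gene. They scored 5.03, 10.8 and 28.6, and 4.25, 9.84 and 24.5, and had no day 15 summit closer than 18518 bp. The fourth lay beside LOC100513133 and had a day 15 summit 848 bp away.

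The 14 day 15 regions ranked lower in their lists, with mean percentiles of 11.3 to 55.7 against 56.6 to 90.4 for the 4 of day 12. A day 12 region needs a summit in day 12 replicate 1, the shortest list, and a day 15 region must have none there. The groups were thus selected through lists of different length, and nothing about the days is read from these percentiles. Of the day 15 regions, 10 of the 14 were within 500 bp of the lncRNA gene end (71.4%, 95% exact binomial interval 41.9% to 91.6%). The share over all 1057 was 34.0%. The interval covers counting error only and is no test, since this measure was chosen after the data had been seen. Of the 8 regions with summits in set A libraries alone, 5 were that close (62.5%), and set A supplies 2 of the 3 day 15 libraries. Day and set cannot be told apart in these counts. LOC102160963 (chromosome 3, 77168538 to 77168577, 24.0 kb from SERTAD2) scored 7.23, 7.73 and 8.90 on day 15, but day 12 replicates 2 and 3 had summits 368 and 230 bp from it. LOC102158334 (chromosome 1, 269056019 to 269056194) lay inside SET, which encodes an inhibitor of the phosphatase PP2A, 5.66 kb from its end, and scored 2.86, 10.1 and 9.24. The closest day 12 summit lay 25416 bp from it. LOC106508501, LOC110255950 and a region at LOC100513133 made up the 5 of highest percentile.

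The next 3 by percentile were regions at ZNRF1, USP42 and LOC110260643. The region at ZNRF1 (chromosome 6, 12668599 to 12668683), a ubiquitin ligase symbol, scored 4.85, 7.10 and 4.09, and that at USP42 (chromosome 3, 5048444 to 5048600), a ubiquitin protease symbol, 4.60, 4.73 and 6.41. USP42 lay 26.5 kb from EIF2AK1, the gene of the haem-regulated kinase of eIF2α. The region of LOC110260643, 16.1 kb from the Polycomb gene CBX7, had its midpoint on the annotated gene end (chromosome 5, 9054137 to 9054383) and scored 4.65, 8.83 and 2.96.

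LOC100513133 on chromosome 2, 8.12 kb long and 9.47 kb or more from FRMD8 by its regions, had 6 regions, more than any other lncRNA gene. The table gives it no other name. In the human genome the nuclear lncRNA genes NEAT1 and MALAT1 lie beside FRMD8, but no identity is assigned here, since no sequence was compared. Below the lower end, the region at 6801645 to 6801692 had summits in the 3 day 15 libraries, with scores of 18.2, 9.19 and 4.26. Above the upper end, the region at 6813451 to 6813531 had summits in the 3 day 12 libraries, with scores of 10.5, 16.2 and 25.8. The same gene thus had a region of each day on its opposite sides. The region 119 bp beyond the upper end (6811820 to 6811834) scored 36.8 and 36.6 in day 12 replicates 1 and 2 and 218 in day 15 replicate 1, at percentiles 96.6 to 99.7.

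A region inside LOC100513133 (6808360 to 6808405) is more than 2 kb from both ends and so is not counted among the 1057. It is described because its scores were seen to be high, at 59.2, 62.4 and 133 on day 12 and 60.3 and 89.0 in day 15 replicates 2 and 3, all at percentiles of at least 98.9. Day 15 replicate 1, the longest list, had no summit there and none at all between its summits at the lower side and the upper end.

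**Figure D4:**
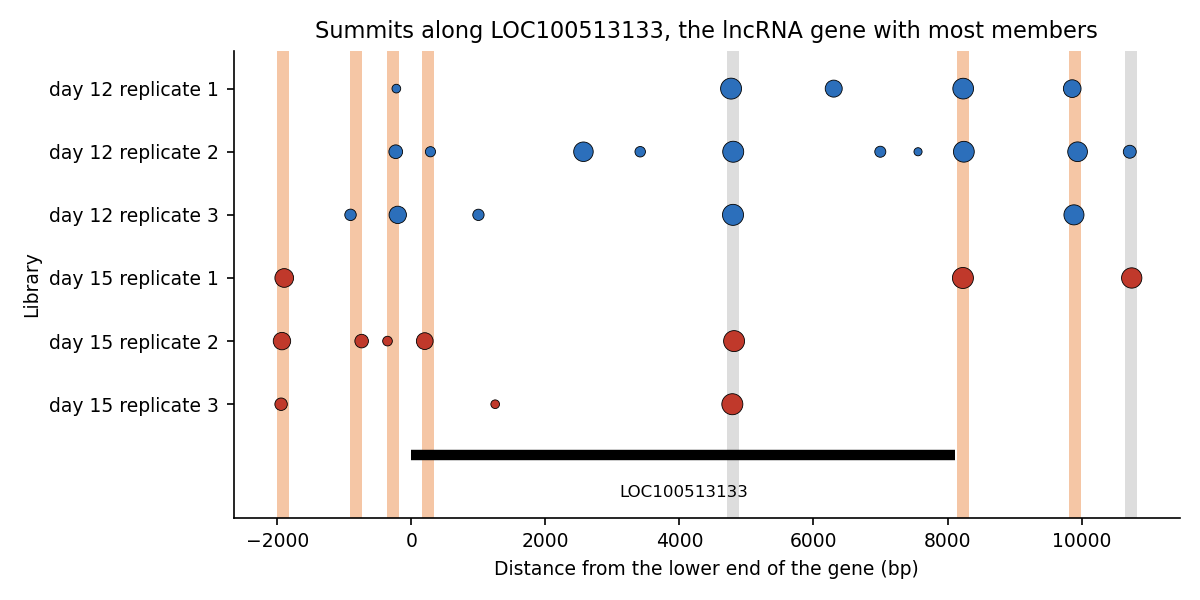
Summits of the 6 libraries (vertical axis) along LOC100513133, by distance from the lower end of the gene in bp (horizontal axis), with day 12 in blue, day 15 in red and point size growing with the score percentile. The black bar is the gene, orange bands are its 6 lncRNA-end regions and grey bands are regions of 2 or more libraries outside the rule. The region at -1921 bp has points of the 3 day 15 libraries and that at 9901 bp of the 3 day 12 libraries.

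Another 9 lncRNA genes had 4 regions each. All 4 at LOC106507734 lay inside RAD51B, a DNA repair gene, 182 kb or more from its end. Of these, 1 was present in all 6 libraries, and so was 1 of the 4 at LOC110257076, which lies between RBPMS and DCTN6 and has its regions 56.6 kb or more from both. LOC102160761 is 3.04 kb long, and its 4 regions lay inside the arrestin gene ARRB1, 20.2 kb or more from its end. All 4 had summits in both set B libraries of day 12. Regions at both ends were found for 95 genes, and 72 of these were longer than 4 kb, so that the windows of their ends did not overlap. LOC110255434 had 3 regions, in 6, 5 and 4 libraries, inside ZBTB16, a factor gene induced by progesterone in endometrial stroma, and 93.6 kb or more from its end. Regions of 1 gene share its surroundings and are not independent of each other.

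A small group of the lncRNA entries bears a gene symbol in place of a locus number. Apart from the lncRNA MEG3, these are symbols of genes that code for protein in other species. There are 56 such entries, and 44 have an end more than 5 kb from protein-coding ends. Of these 44, 18 had a region (40.9%, 95% exact binomial interval 26.3% to 56.8%), against 802 of 4617 entries with locus numbers (17.4%, 16.3% to 18.5%). Of all 56 entries, 19 had a region, and these held 26 of the 1057 regions. Of the 26, 15 were within 500 bp of the end (57.7%), against 33.4% of the regions at entries with locus numbers. HNRNPU, B4GALT4, LRMDA and BORCS5 each had a region of all 6 libraries. At B4GALT4, the symbol of a galactosyltransferase, it lay at chromosome 13, 141004486 to 141004613, and scored 7.86, 15.0 and 32.8 on day 12 and 159, 16.3 and 8.40 on day 15. EIF3B, the symbol of a translation initiation factor, had a region 90 bp from its end in 5 libraries, with scores of 5.31 and 5.22 on day 12 and 12.5, 13.5 and 17.0 on day 15. Whether these entries are lncRNA genes or incomplete models of coding genes was not tested. Leaving them out gave 1031 regions and a day difference in log2 number of -0.076.

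Some regions stood close to the limits of the rule. Just inside 2 kb lay a region of all 6 libraries 1995 bp from LOC102166296 (chromosome 5, 6060106 to 6060146), and just outside a region of 4 libraries 2001 bp from LOC106507157 (chromosome 11, 17691332 to 17691519). Just beyond 5 kb of a protein-coding gene end lay a region of 4 libraries at LOC100736659, at 5022 bp, and just within it a region of all 6 libraries at LOC102164024, at 4994 bp. A further 1074 recurrent regions were within 2 kb of an lncRNA gene end but not more than 5 kb from a protein-coding one, and 1033 regions met both distances with a summit in 1 library only. Of 53 lncRNAs known from other species that were looked for by name, the table classes 1 as lncRNA under its name, MEG3, which had no region.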

How the data were processed

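The submitters' processing notes name MACS2 2.1.2, Bowtie2 2.3.5.1 and SAMtools 1.9, and the build susScr11. How MACS2 was run, and whether input entered the calls, is not given in the sources used here. The authors deposited 1 score per summit on the −log10 scale, which stands for a p-value or a q-value, with a lowest value of 1.30 to 2.02 by list. Of 198341 summits, 196102 on chromosomes 1 to 18 and X were used, with positions counted from 1. Genes were placed with RefSeq's Sscrofa11.1 table, which holds no strand, exon or sequence, so sequences and the 6 planned motifs were not examined. Days were compared by two-sided exact permutation over libraries (3 against 3), with Benjamini-Hochberg adjustment over 4 tests, 0.5 added to each cell of an odds ratio, and a threshold of 0.05. Of these, 3 tests use the presence of summits that also chose the regions, so their values are given without p. Alternatives were higher scores, other joining and gene-end distances, 3 or more libraries, lists of equal length, comparison within sets, a replicate block and leaving out each library. Intervals are 95% exact binomial (Clopper-Pearson). Python 3.11.15 with numpy 2.4.6, pandas 2.3.3 and scipy 1.17.1 was used, tested on simulated lists. Named regions were the 12 highest by mean score percentile among those of all 6 libraries, up to 8 per day among those of 1 day, genes with symbols, with regions at both ends or 3 or more, neighbours on the 4 lists within 50 kb, and regions at the limits. From the larger of these groups a selection is named. The regions, lists and rules were chosen with earlier results of these data known.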

Additional observations from a re-analysis of the deposited data

How the results depend on the processing

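Under the exact permutation test no setting could pass the threshold, since 0.1 is its smallest p for 3 against 3. The p-values thus say nothing about stability. The difference in log2 number of regions per library (-0.063) turned to 0.024 with lncRNA gene ends within 1 kb and to 0.62 within sets, and ran from -0.86 to 0.41 with 1 library left out. The difference in percent of all summits at lncRNA gene ends (0.041) turned to -0.036 and -0.23 with scores of at least 5 and 10, to -0.010 with equal lists, to -0.19 with gene ends within 5 kb and to -0.017 within sets, and ran from 0.0057 to 0.11 with 1 library left out. The log2 odds ratios kept their sign in 18 of 18 settings each, though under the replicate block the sign could not turn. With 1 library left out they were -2.67 to -0.98 against protein-coding ends and 0.55 to 1.43 against regions far from genes. The day 12 count (4) was 2 with a score of at least 10, 7 with equal lists, 1 with gene ends within 1 kb, 7 within 5 kb, and 4 to 88 with 1 library left out. The day 15 count (14) was 9 and 4 with scores of at least 5 and 10, 8 with joining within 100 bp, 5 with equal lists and 14 to 57 with 1 library left out. Counts with 1 library left out follow a looser rule, and equal lists left 226 regions, so these counts have different bases. Requiring no summit of the other day within 1 kb, and leaving out entries with gene symbols, were chosen after seeing the data. With a replicate block the paired difference in log2 number was -0.063 and that in percent of summits 0.041, as without the block. Same-numbered libraries correlated at -0.26, 0.015 and -0.13 in their deviations from the day means over 49050 regions. Each of these pairs joins a library of set A to a library of set B. The values therefore cannot show whether the numbers pair the samples. Depth is unknown, and an absent summit does not show an absent site.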

Other observations

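Transfer RNA genes stood near some of the lncRNA-end regions, though the rule did not use them. Within 2 kb of a tRNA gene end lay 14 of the 1057 regions (1.32%, 95% exact binomial interval 0.726% to 2.21%), against 105 of 33745 (0.311%) of all recurrent regions more than 5 kb from protein-coding gene ends. The 14 regions belong to 11 lncRNA genes, so they are not independent, and the interval covers counting error only. Of all 10798 lncRNA gene ends, 23 (0.213%) have a tRNA gene end that close. The windows around lncRNA gene ends cover 1.28% of the chromosome length and hold 18 of the 448 tRNA genes. The share of 1.32% thus depends on where tRNA genes lie, and a preference of the summits for them was not tested. Within 250 bp of a tRNA gene lay 8 of the regions. A region of all 6 libraries was 62 bp from TRNAR-UCU beside LOC102159537 (chromosome 4, 123419149 to 123419253), and another 68 bp from TRNAD-GUC beside LOC110260308 (chromosome 4, 88965016 to 88965102). Of 448 tRNA genes on these chromosomes, 165 (36.8%) had a recurrent region within 250 bp. Of the 18 within 2 kb of an lncRNA gene end and more than 5 kb from protein-coding ends, 8 had one (44.4%). The 95% exact binomial interval of that share, 21.5% to 69.2%, holds the 36.8% of all, which include these 18. Of the 281 more than 5 kb from lncRNA and protein-coding gene ends, 70 had one (24.9%), a share that also lies inside the interval.

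MicroRNA genes were within 2 kb of 2 regions. A region of all 6 libraries inside LOC110259927 (chromosome 3, 28908730 to 28908794) lay 546 bp from MIR365-1, and a region of 3 libraries inside LOC106504859 lay 42 bp from MIR7143.

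Chromosome Y is outside the rule. It held 118 summits in 64 joined regions, 25 of them with summits in 2 or more libraries, and 1 of these met the distances used for the other chromosomes. That region lay 77 bp from LOC102165752 (3369067 to 3369139) and had summits in day 12 replicate 1 and in the 3 day 15 libraries. The tissue came from pregnant females, and where reads placed on chromosome Y arise was not tested.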
